A study of Mus musculus with 6 samples.

Results

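Iigp1, Irgm1 and BC023105 are 3 genes of the immunity-related GTPase family in the mouse, taken from 19926 genes measured in primary astrocyte cultures with and without tumour necrosis factor (TNF). They were chosen by family name and on their log2 differences between the TNF and control arrays, each through the 1 probe set that names it alone, so their differences are given here as a description and no test is attached to them. The astrocytes, the main support cells of the brain, came from C57BL/6J mice and were grown in culture. The TNF group received the cytokine at 50 ng/mL and was collected after 24 h; the control group was collected at the same time and no other agent is named for it. Each group had 3 samples, numbered 1 to 3 and each hybridised to its own Affymetrix Mouse Gene 1.0 ST array. The labels do not say that the replicates were separate cultures or animals, so a p-value here reflects the spread among 6 arrays that may be technical. Both arrays of replicate 3 stood slightly apart, with upper quartiles of 8.88 and 8.87 over all probe sets against 8.99 to 9.04 on the others.

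Most immunity-related GTPases are made in large amounts after exposure to interferons, above all interferon-gamma, and they act inside the infected cell. Effector members such as Iigp1 (also called Irga6) gather on the vacuole in which parasites such as Toxoplasma live and help to break it, while the Irgm proteins sit on the cell's own membranes and keep the effectors inactive there. Irgm1 is also known for links to autophagy and lysosomes. Transcription of the family runs through factors that bind the GAS element (gamma-activated site) and the ISRE (interferon-stimulated response element). RefSeq lists BC023105 as a pseudogene, and in its gene order 1 other gene, itself not protein coding, lies between Iigp1 and BC023105. Whether probes of one cross-hybridise with its relatives was not tested, so the signals of Iigp1, BC023105 and their relative Gm4951 may share transcripts.

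The stretch before the start site shows where these elements lie in 3 of the 4 family genes that had both a probe set of their own and a promoter window. The fourth, Irgq, held no match to either element; the promoters of Iigp1 and BC023105 were not analysed here. The 100 bases before the annotated start are given 5′ to 3′ from RefSeq (GRCm38.p6), with matches in capitals, on either strand, to the ISRE core (GAAA, any 2 bases, GAAA) and to GAS (TTC, any 3 bases, GAA). Irgm1 lies on the minus strand (chr11:48871421-48871520), Gm12250 on the plus strand (chr11:58183743-58183842) and Gm12185 on the minus strand (chr11:48927183-48927282).
Irgm1: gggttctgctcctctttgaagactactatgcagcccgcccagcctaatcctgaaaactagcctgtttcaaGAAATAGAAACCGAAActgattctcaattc
Gm12250: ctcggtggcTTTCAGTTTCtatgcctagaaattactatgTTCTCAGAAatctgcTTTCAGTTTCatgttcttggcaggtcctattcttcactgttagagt
Gm12185: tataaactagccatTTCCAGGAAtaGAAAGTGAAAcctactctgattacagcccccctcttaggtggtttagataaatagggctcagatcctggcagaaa
In Irgm1 the capitals are 2 overlapping ISRE core matches, which start 30 and 24 bases before the start site. Gm12250 (Irgb10), an effector GTPase known to act on bacterial membranes, had ISRE core matches starting 91 and 46 bases before the start, read on the opposite strand, with a GAS match between them at 61 bases. In Gm12185 (Irgb2b1) the GAS match started 86 bases and the ISRE core match 75 bases before the start. Windows of 300 bases, from 250 before to 50 after the start, were held for 12 genes of the family. Of these, 8 contained the ISRE core and 6 contained both elements; over all 32851 windows the shares were 3.44% for the ISRE core, 8.30% for GAS and 0.454% for both. None of the 12 windows held the NF-kB type letters (GGGA, any 4 bases, CC), which occurred in 20.7% of all windows. The 12 genes are relatives, and Irgm2, Igtp, Tgtp1, Tgtp2 and Gm12185 held both elements in the same order and spacing. Their windows are therefore not separate cases, and the shares beside them are given as a description. A match is a run of letters and not a bound site, and the count says nothing about binding elsewhere.

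**Figure D1:**
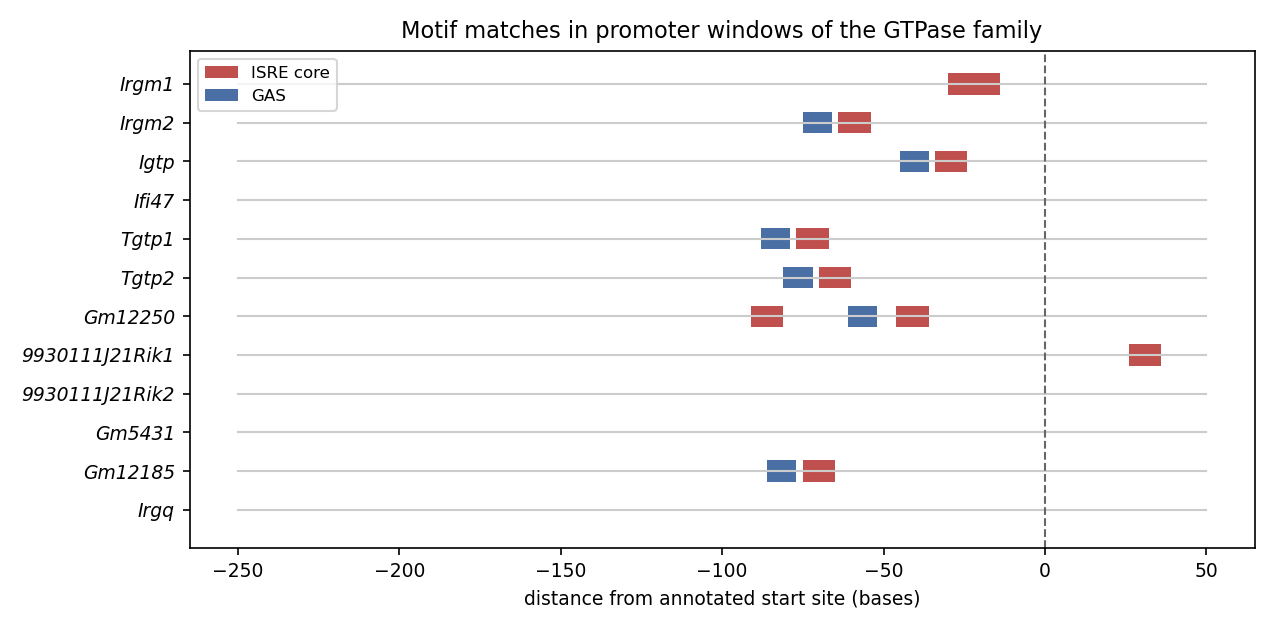
Matches to the ISRE core (red) and GAS (blue) in the promoter windows of 12 genes of the immunity-related GTPase family, drawn by distance in bases from the annotated start site (dashed line). The GAS and ISRE core matches of Irgm2, Igtp, Tgtp1, Tgtp2 and Gm12185 sit side by side before the start, those of Gm12250 alternate, and Irgm1 holds ISRE core matches only.

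Iigp1 was 27.9-fold higher with TNF. Its log2 signals were 5.32, 5.50 and 5.75 on control arrays 1, 2 and 3, against 9.87, 10.71 and 10.40 on TNF arrays 1, 2 and 3. There was no overlap, with TNF above control on all arrays as in 12.3% of all genes tested, and the lowest TNF array lay 4.11 log2 units above the highest control. The means were 5.52 ± 0.22 and 10.33 ± 0.43 (SD, n = 3 per group), a log2 difference, TNF minus control, of 4.80 with a standard error (SE) of 0.22. It was the ninth largest positive difference among all genes tested, and 4.88 without replicate 3 of both groups. More expressing cells and more RNA per cell cannot be told apart in bulk samples.

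BC023105, the pseudogene beside Iigp1, had nearly the same difference but a wider spread with TNF. Its log2 signals were 4.72, 5.17 and 4.67 on the control arrays, in the same order, against 8.90, 10.58 and 9.54 on the TNF arrays. All TNF arrays again lay above all controls, by at least 3.73, but the TNF arrays differed among themselves by 1.68. The means were 4.86 ± 0.27 and 9.67 ± 0.85 (SD, n = 3 per group), and the log2 difference of 4.82 (SE 0.38), or 4.79 without replicate 3, was 28.2-fold. Its residual SD of 0.63 was larger than that of 99.1% of genes tested, against 90.1% for Iigp1 and 84.6% for Irgm1.

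Irgm1, the regulatory member, was 7.99-fold higher with TNF. Its log2 signals were 8.51, 8.51 and 8.94 on the control arrays against 11.32, 12.01 and 11.64 on the TNF arrays. The lowest TNF array stood 2.38 above the highest control, so the groups did not overlap. The means were 8.66 ± 0.25 and 11.65 ± 0.35 (SD, n = 3 per group), with a log2 difference of 3.0 (SE 0.20), which ranked 66 among all genes and was 3.15 without replicate 3. Array signals compress large folds and leave a floor under dim genes, no detection calls were used, and the folds therefore tend to understate ratios of transcripts.

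**Figure D2:**
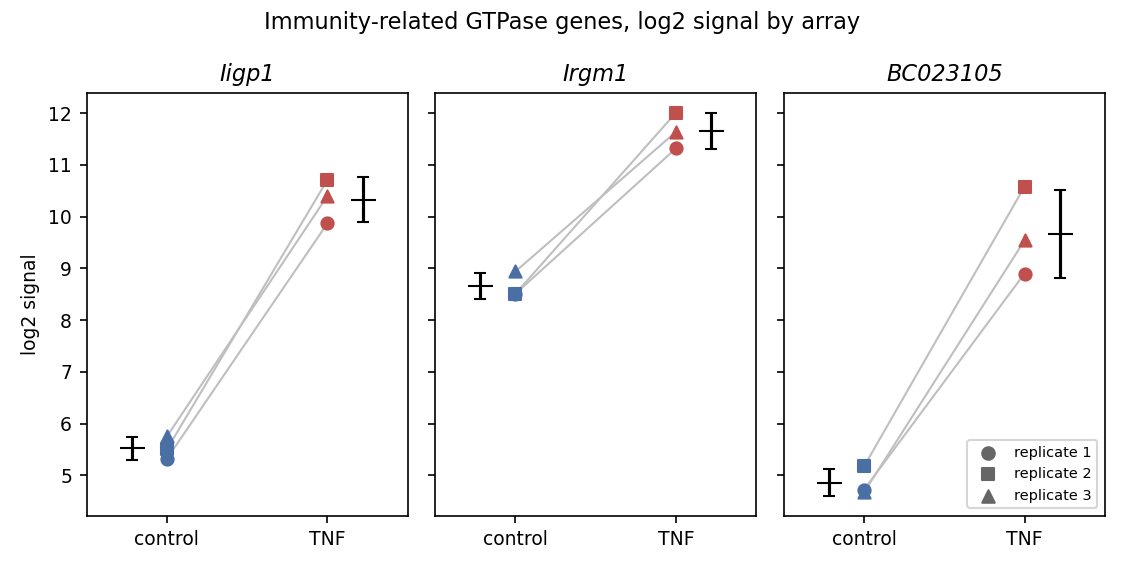
Log2 signal of Iigp1, Irgm1 and BC023105 on each array, control in blue and TNF in red, with a marker shape for each replicate number, grey lines joining equal numbers, and black bars for the group mean ± SD (n = 3). In all 3 genes every TNF array lies above every control array, and TNF 1 is the lowest and TNF 2 the highest of the TNF arrays.

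The 3 genes shared an order among the TNF arrays that the contrast does not fix. TNF 1 was the lowest and TNF 2 the highest for each of them, and the same order held in 6 of the 8 family genes measured (not in Irgq and Irgc1), against 11.1% of all genes tested. Other lists differed in this order. It held in 8 of 10 further interferon-induced GTPases, 10 of 17 type I interferon targets and 3 of 13 interferon-gamma targets. Among the interferon and NF-kB transcription factors it held in 0 of 13. It held in 3 of 9 interferon receptors and kinases, 2 of 10 inhibitors, 3 of 16 interferon ligands and 4 of 21 autophagy and vacuole genes. The control arrays showed no common order: Iigp1 and Irgm1 were highest in control 3, and BC023105 in control 2. Taken within replicate numbers, the log2 difference of Iigp1 was 4.55, 5.21 and 4.65 for numbers 1, 2 and 3. Irgm1 gave 2.80, 3.49 and 2.70, and BC023105 gave 4.18, 5.41 and 4.87. Number 2 therefore had the largest difference in all 3 genes. It also did in the list means of the type I targets (2.32, 3.03 and 2.48) and the interferon-gamma targets (1.82, 2.26 and 1.88). The means of interferon receptors, transcription factors and inhibitors did the same. So did a list of autophagy and vacuole genes that hardly changed (0.06, 0.19 and 0.09), but not the interferon ligands (-0.11, -0.01 and 0.07). The share of all genes with their largest difference in number 2 was not counted. For microglia and macrophages, immune cells that astrocyte cultures can carry, the mean log2 signal of the 15 measured markers was 7.08, 6.38 and 7.82 on control arrays 1, 2 and 3 against 7.42, 6.51 and 7.81 on TNF arrays 1, 2 and 3, lowest in number 2 of both groups. Within numbers 1, 2 and 3 that mean differed by 0.34, 0.13 and -0.02, and the part of these cells in the GTPase differences was not tested. Single markers differed in their spread. C1qb, a complement gene of these cells with a wide spread, was 8.25, 6.17 and 9.16 in controls 1, 2 and 3. In TNF 1, 2 and 3 it was 9.11, 6.81 and 9.35. Cd68 was 8.36, 7.81 and 8.76 in controls 1, 2 and 3. With TNF it was 8.96, 8.77 and 8.90, so both markers were lowest in number 2 of both groups.

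The rest of the family was looked for under 23 symbols, older names included, and 5 genes had a probe set of their own. Of these 5, 3 rose with TNF and none fell at an adjusted p under 0.05 (limma, adjusted by Benjamini-Hochberg over the whole table), where 3.87% of all genes tested were called higher and 3.33% lower. Their median log2 difference was 1.81, against -0.003 over all genes. Another 7 family genes, among them Irgm2, Igtp, Tgtp1 and Ifi47, were annotated only to probe sets shared with another gene and are not reported by name.

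Gm4951 (Ifgga2), a relative of Iigp1 from the same gene neighbourhood, rose 20.8-fold. Its log2 signals were 5.91, 6.21 and 6.51 in the controls and 10.09, 10.95 and 10.73 with TNF, a gap of 3.57 between the groups. The log2 difference was 4.38 (SE 0.25, n = 3 per group, limma adjusted p = 7.89e-05). Gm12250, whose promoter is printed above, rose 19.7-fold, from 6.51, 5.87 and 6.41 in the controls to 9.70, 11.16 and 10.83 with TNF. Its means were 6.26 ± 0.34 and 10.56 ± 0.77 (SD, n = 3 per group), and the log2 difference of 4.30 had an SE of 0.36 and an adjusted p of 4.52e-04 with limma. Both passed in each of the 6 fits without 1 array.

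Gm12185, which lies near Irgm1 with 1 gene between them, rose 3.51-fold. Its signals were 5.47, 5.10 and 5.15 in the controls and 6.63, 7.87 and 6.66 with TNF, so TNF 2 stood above the other TNF arrays. The log2 difference was 1.81 (n = 3 per group, SE 0.32, limma adjusted p = 0.0146). The call was lost without control 2 (limma adjusted p = 0.0514), without control 3 (0.0510) and without replicate 3 of both groups (limma adjusted p = 0.0929).

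Irgq and Irgc1 did not pass. Irgq, a divergent member thought to lack GTPase activity, went from 7.55 ± 0.09 to 7.87 ± 0.13 with TNF (SD, n = 3 per group; limma adjusted p = 0.176, SE 0.12 on a log2 difference of 0.32). With the replicate number as a block, a fit that called 9.73% of all genes higher and 11.8% lower, Irgq passed as higher (limma adjusted p = 0.0255). Irgc1, known from testis, was 6.48, 6.14 and 6.66 in the controls and 6.38, 6.37 and 6.78 with TNF, and the groups overlapped. Its log2 difference was 0.08 (SE 0.18, limma adjusted p = 0.928), and it turned to -0.06 without control 2 and -0.05 without TNF 3.

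**Figure D3:**
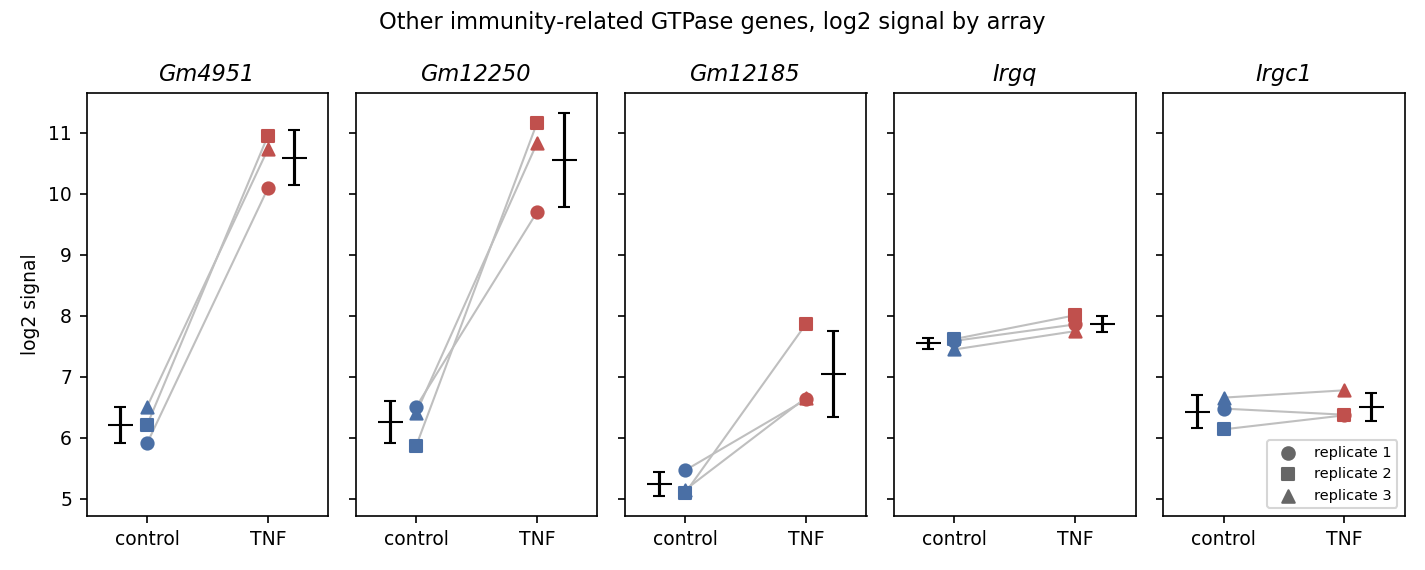
Log2 signal on each array of the 5 other immunity-related GTPase genes with a probe set of their own, control in blue and TNF in red, marker shapes for replicate numbers, grey lines joining equal numbers and black bars for the mean ± SD (n = 3). Gm4951 and Gm12250 show gaps of 3.57 and 3.19 log2 units between the groups, Gm12185 one of 1.16, and the groups of Irgc1 overlap.

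Profiles over the 6 arrays were compared by the root mean square distance between genes, each centred on its own mean, in log2 units and as a description. Iigp1 lay nearest to Phf11d, a PHD finger gene, at 0.10, followed by Ifi205 at 0.18 and Casp4, the inflammatory caspase that senses cytosolic lipopolysaccharide, at 0.214. Gm4951 at 0.220 and the chemokine Ccl7 at 0.223 completed its 5 nearest genes. BC023105 lay nearest to Ifi205 at 0.164 and Phf11d at 0.316; then came Cd74, the MHC class II invariant chain, at 0.408, Gm4951 at 0.426 and Lgals9, galectin-9, at 0.468. The distance between Iigp1 and BC023105 themselves was 0.343.

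Irgm1 had another set of neighbours. They were Nupr1, a stress-induced nuclear protein, at 0.145, Bst2, which tethers enveloped viruses to the cell surface, at 0.151, Parp14 at 0.157, Ube2l6, which conjugates the ubiquitin-like protein ISG15, at 0.159, and the guanylate-binding protein Gbp7 at 0.169. Their log2 differences ran from 2.73 for Gbp7 to 3.14 for Nupr1. Irgm1 was 0.907 from Iigp1 and 0.992 from BC023105, because the measure takes in the size of the difference as well as its shape.

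**Figure D4:**
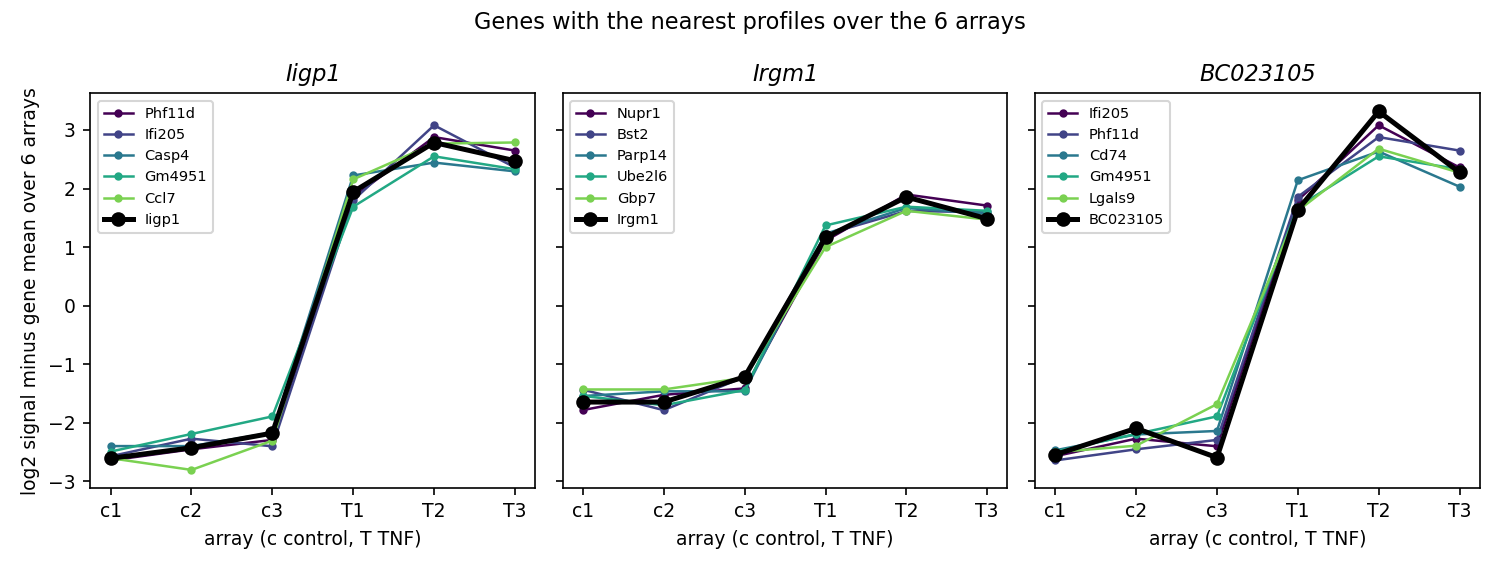
Log2 signal minus the gene's mean over the 6 arrays for Iigp1, Irgm1 and BC023105 (black) and the 5 genes nearest to each (coloured), with arrays in the order control 1 to 3 and TNF 1 to 3; lines join arrays only to guide the eye. The nearest gene is Phf11d at 0.10 for Iigp1, Nupr1 at 0.145 for Irgm1 and Ifi205 at 0.164 for BC023105.

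Of 16 measured interferon ligands 0 were called with limma, where 3.87% of all genes were called higher and 3.33% lower, and 1 had an unadjusted p under 0.05. With the replicate block 1 was called lower, where that fit called 11.8% of all genes lower. These counts are near the shares of all genes and set the ligands apart in neither direction. Only 3 of the 16, Ifng not among them, reached the median signal of all genes tested. The others may lie near background, where a rise could be missed. Ifng, the type II interferon and the classic inducer of the GTPases, was 6.29, 6.17 and 6.38 on the control arrays and 6.24, 6.40 and 6.40 on the TNF arrays, with overlapping groups (log2 difference 0.07, n = 3 per group, SE 0.11, limma adjusted p = 0.886). The ligands with the smallest p were Ifnz at -0.38, which was the one called with the block (limma adjusted p = 0.0208), Ifna9 at 0.28, Ifnk at -0.24 and Ifna12 at -0.12. The list's median difference was 0.01. Markers of T and NK cells, the main makers of interferon-gamma, were called in 0 of 8 genes with limma, and 0 had an unadjusted p under 0.05. Their mean log2 signal ran from 5.50 to 5.77 in controls and from 5.45 to 5.92 with TNF. Only 24 h was sampled, and interferon protein was not measured.

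Receptor chains and kinases that carry the interferon signal rose in 6 of 9 genes with none lower, with a median log2 difference of 0.83. Of all genes 3.87% were called higher, and 9.73% with the replicate block. Ifngr2, the signalling chain of the interferon-gamma receptor, rose 2.96-fold, from 10.69 ± 0.18 to 12.26 ± 0.04 (SD, n = 3 per group, limma adjusted p = 3.34e-04). Its partner Ifngr1 rose 2.09-fold, and Ifnar2, of the type I receptor, went from 10.21 ± 0.13 to 11.21 ± 0.12 (limma adjusted p = 0.00303). Il10rb, shared by the type III interferon and interleukin-10 receptors, rose 2.16-fold. Ifnar1 at 0.28, Jak1 at 0.13 and Ifnlr1 at 0.12 did not pass, but with the replicate block Ifnar1 was called higher (limma adjusted p = 0.0422), which made 7 calls. Beside them Jak2 was called (limma adjusted p = 0.0347), but lost the call in each of the 6 fits without 1 array.

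Transcription factors of the interferon and NF-kB pathways rose in 10 of 13 measured genes with none lower, with a median log2 difference of 1.11. The share called higher over all genes was 3.87%, or 9.73% with the replicate block. Irf1, the interferon regulatory factor known to drive several of these GTPases, rose 8.55-fold. Its log2 signals were 8.36, 8.35 and 8.37 in the controls and 11.25, 11.48 and 11.63 with TNF (log2 difference 3.10, SE 0.13, n = 3 per group, limma adjusted p = 2.03e-05), so TNF 1 was again the lowest but TNF 3 the highest. Irf7, which amplifies type I responses, rose 25.4-fold, Stat2 4.57-fold and Relb, an NF-kB subunit, 4.14-fold. Irf8, Irf3 and Irf2, at 0.11, -0.05 and 0.50, did not pass. Irf2, with differences of 0.50, 0.57 and 0.42 within numbers 1, 2 and 3, passed as higher with the replicate block (limma adjusted p = 0.00454), the eleventh call of the list.

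Inhibitors of interferon signalling rose in 3 of 10 genes without a fall in any, around a median log2 difference of 0.18. Among all genes 3.87% were called higher, or 9.73% with the replicate block. Usp18, which blocks the type I receptor, rose 10.6-fold, and the phosphatases Ptpn2 and Ptpn1 rose 1.60-fold and 1.79-fold. Socs1, the inhibitor induced by interferon-gamma, differed by 0.61 (limma adjusted p = 0.0713); it was among the 5 called higher in the fit with the replicate block. Of the 6 fits without 1 array, Ptpn2 kept its call in 3, losing it without control 1, control 3 or TNF 2 (limma adjusted p from 0.0602 to 0.0754). Ptpn1 kept its call in 1 of the 6, the fit without control 1, and was at 0.0510 to 0.0994 in the others. Both lost it without replicate 3 of both groups (0.0647 for Ptpn2 and 0.105 for Ptpn1).

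Other interferon-induced genes were higher on the same arrays, where 3.87% of all genes were called higher, or 9.73% with the replicate block. Further GTPases rose in 9 of 10 measured genes (median log2 difference 3.66), among them Gbp5 by 50.8-fold, Gbp9 by 15.5-fold, Gbp3 by 14.2-fold and Gbp7 by 6.63-fold. Their mean over the list had the largest difference in replicate number 2, at 4.03, against 3.19 and 3.55 in numbers 1 and 3. Type I interferon targets rose in 17 of 17 measured genes, with a median log2 difference of 2.28. Leaving out arrays gave 14 to 17 calls, and an adjusted p under 0.01 gave 14 with limma. Ifit2, Oas1a and Oas3 each kept the call in 1 of the 6 fits without 1 array. Rsad2, the antiviral protein viperin, rose 17.9-fold, Dhx58 by 3.58 on the log2 scale, Rtp4 11.5-fold and Xaf1 10.2-fold. Targets known chiefly from interferon-gamma rose in 9 of 13 measured genes, with a median of 1.42. Cd74 rose 23.2-fold, the MHC class II gene H2-Aa 10.8-fold, the adhesion molecule Icam1 8.88-fold and Cd274, the checkpoint ligand PD-L1, 8.15-fold. Ciita, the master activator of MHC class II, differed by 0.33 and Ido1 by 0.24; neither passed. With the replicate block 12 of the 13 were called higher, Ciita among them (limma adjusted p = 0.0411).

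The ATG8 conjugation machinery, which includes Atg3, Atg5, Atg7, Atg12 and Atg16l1, is known to be needed for these GTPases to load onto vacuoles. A list of 21 genes that holds it beside ATG8 proteins, earlier autophagy genes such as Ulk1 and Becn1, and genes for ubiquitin tagging had 1 gene higher (4.76%, near the 3.87% of all genes) and none lower, with a median of 0.07 on the log2 scale. The one was Trim21, an interferon-induced ubiquitin ligase that marks vacuoles, which rose 3.65-fold with a log2 difference of 1.87 (limma adjusted p = 2.09e-04, SE 0.13, n = 3 per group). Next in order of p came Map1lc3a at -0.36, Gabarapl2 at -0.21 and Atg14 at 0.31, of which Map1lc3a passed as lower with the replicate block (limma adjusted p = 0.0144), where 11.8% of all genes did. Atg5, part of the conjugation machinery, was 8.19 ± 0.16 and 8.31 ± 0.12, and Gabarap 13.08 ± 0.05 and 12.96 ± 0.09 (SD, n = 3 per group).

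**Figure D5:**
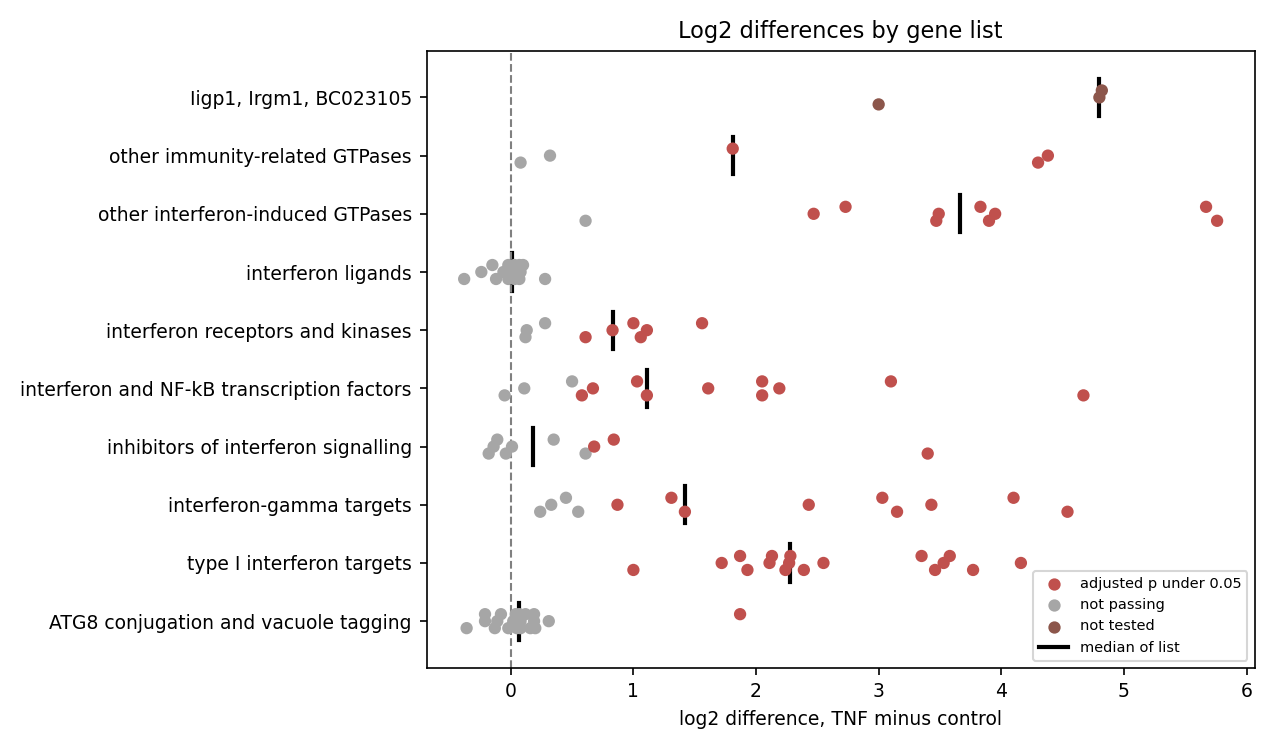
Log2 differences (TNF minus control) of the measured genes of each list, 1 point per gene, red where the limma adjusted p was under 0.05, grey where it was not, brown for Iigp1, Irgm1 and BC023105, which were not tested; black bars mark list medians. The interferon ligands centre on 0.01 and the ATG8 genes on 0.07, while the tested GTPase and target lists have medians from 1.42 to 3.66.

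The cultures carried astrocyte markers on every array, with a mean log2 signal of the 10 markers from 11.02 to 11.32 in controls and from 10.64 to 10.91 with TNF, and 3 of them fell (Aldoc, Glul and Gja1). With the replicate block 6 fell, Gfap and Sox9 among them, and 2 rose (Aqp4 and Slc1a2). Over all genes tested 3.87% were called higher and 3.33% lower, and with the block 9.73% higher and 11.8% lower. Of the 15 microglia and macrophage markers 0 were called with limma, 1 had an unadjusted p under 0.05 and 3 were called higher with the replicate block (Itgam, Cd68 and C1qb). Among other cell types, 1 marker each fell for endothelial cells (Kdr), fibroblast and mural cells (Acta2), the oligodendrocyte lineage (Olig1) and neurons (Map2), and none rose. With the replicate block 2 fell for fibroblast and mural cells, and for neurons 2 fell and 1 rose (Gad1). On the control arrays the list means ran from 7.83 to 8.13 for neurons and from 8.12 to 8.74 for fibroblast and mural cells. They ran from 7.72 to 7.79 for the oligodendrocyte lineage and from 6.35 to 6.65 for endothelial cells. Single markers such as Acta2 (control mean 13.37), the neuron marker Stmn2 (12.09) and Olig1 (11.29) were as bright as astrocyte markers. Others of the same lists were dim, such as Lum (4.05), Snap25 (6.12) and Mog (6.48). The astrocyte marker S100b was dim, at 6.59 in controls. The share of each cell type was not tested.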

How the data were processed

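Control and TNF-treated astrocyte samples, 3 each, were compared on 1-colour arrays. Values are log2 signals as deposited (35544 probe sets, 6 arrays), which the authors made with RMA, per the submitters' processing notes; these also name limma, for versions and a genome build, none is given in the sources used here. Log base 2 was taken from the range of the values, 2.04 to 14.37. The number of arrays limits the precision. Only the 21777 probe sets with a single gene symbol were used, not the 1621 with several or the 12146 with none; the one with the highest mean stood for its gene (19926 genes). Titles gave the groups. Differences, TNF minus control, were tested two-sided without a block using limma 3.58.1 under R 4.3.3 (4 residual degrees of freedom), and p-values were adjusted by Benjamini-Hochberg over all genes, with a threshold of 0.05. The fit was tested on simulated data.

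Samples sharing a replicate number deviated together from their group means (correlations of 0.55, 0.65 and 0.75 for numbers 1, 2 and 3). From these values alone, a pairing by number was fitted as a block in an alternative. The main fit leaves the pairing out, so its SEs, p-values and counts are unpaired. Blocked results are given where the call of a named gene changed. Named genes were the 3 GTPases, every measured relative, up to 4 genes of smallest p per pathway list and the 5 nearest profiles per GTPase; other list members and markers named beside these were chosen after their values were seen. The genes, lists and rules were chosen with earlier results of these data known. Promoters came from RefSeq, matched by symbol. Alternatives were the block, centring, quantile normalization, a filter on dim genes, variance models, array weights, other probe sets, a stricter threshold and left-out arrays. Tables and plots were made in Python 3.11.15 (pandas 2.3.3, numpy 2.4.6, matplotlib 3.10.9).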

Additional observations from a re-analysis of the deposited data

How the results depend on the processing

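Over the centring, quantile, probe set and left-out-array alternatives the log2 differences stayed positive and within 1 residual SD of the reported value, from 4.61 to 5.03 for Iigp1, from 2.82 to 3.17 for Irgm1 and from 4.36 to 5.21 for BC023105. With the replicate block 4289 genes were called (1938 higher, 2351 lower) in place of 1434, 1 interferon ligand, 5 inhibitors of interferon signalling and 2 ATG8 and vacuole genes. At an adjusted p under 0.01 there were 581 calls over all genes and 1 inhibitor. Without genes below the median signal 4 interferon-gamma targets were called, of 5 that were left to test. Leaving out arrays gave 632 to 1124 calls over all genes (632 without replicate 3 of both groups), 1 to 3 inhibitors and 2 to 3 of the other immunity-related GTPases, and Irgc1 ranged from -0.06 to 0.20. The measured relatives and the up to 4 genes of smallest p per pathway list, 37 genes, were followed over all alternatives but the stricter threshold. Of their values, 527 kept direction and call, 13 lost the call, 7 gained it and 2 changed sign, both Irgc1. Nearest profiles outside these 37 were not followed. Where a call or count changed, the cause was not tested, apart from the filter on dim genes, which left fewer genes to test. The labels give no detection calls or probe sequences, so low signals may lie near background.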

Other observations

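Some immunity-related GTPase genes are so alike that their probe sets carry more than 1 gene name, and these probe sets stood outside the comparisons above. There were 5 whose names all belong to the family. On each of the 5 all TNF arrays lay above all control arrays, as in 12.3% of all genes tested. Some of the 5 carry the same pair of gene names, so the 5 are not separate measures of the family. Their log2 differences ran from 1.93 to 5.35, or 3.81-fold to 40.8-fold. On the probe set with the largest difference the log2 signals were 5.81, 6.27 and 6.85 in controls 1 to 3 and 10.53, 12.30 and 12.15 with TNF. A further probe set, shared with a gene outside the family, went from 5.38 ± 0.19 to 9.83 ± 0.30 (SD, n = 3 per group). No test was made on these values, which cannot be assigned to single genes.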
